A study of Caenorhabditis elegans with 6 samples.

Results

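The 9 genes described here encode PUF proteins of Caenorhabditis elegans: fbf-1, fbf-2, puf-3, puf-5, puf-6, puf-7, puf-8, puf-9 and puf-11. They were chosen by name, and a probe was counted as theirs when its sequence name or accession on the array matched one of these genes. All 9 were found, on 12 of the 43603 probes, among 20434 genes named on the array. Of these 9 genes, 5 lie on chromosome II (fbf-1, fbf-2, puf-5, puf-6 and puf-8), 3 on chromosome IV (puf-3, puf-7 and puf-11) and puf-9 on chromosome X.

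WTN2 and RB1035 worms were compared as whole young adults that had not yet begun to reproduce, grown on agar with OP50 bacteria. WTN2 is the wild-type strain, and RB1035 carries a mutant allele of flcn-1, the worm counterpart of the human tumour suppressor folliculin, and had been backcrossed to WTN2 8 times. The labels call the 3 samples of each strain biological triplicates, and each was hybridised to its own 1-colour Agilent array with Cy3. RB1035 is 1 strain, and the labels used here name neither its allele nor the lesion.

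PUF proteins, named after Pumilio of the fly and FBF of the worm, bind short elements that begin with UGU in the untranslated tails of messenger RNAs and mostly lower their translation or stability. In the worm most of them act in the germ line. FBF-1 and FBF-2 keep germline stem cells dividing and allow the switch from sperm to oocytes by repressing fem-3, PUF-8 acts beside them in the distal gonad, PUF-5, PUF-6 and PUF-7 act in growing oocytes, PUF-3 and PUF-11 act in late oocytes and the early embryo, and PUF-9 acts in the soma on the timing of larval development.

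Levels are given as the log2 of the processed spot signal minus the array's 75th percentile, so that 0 is the level of the probe at that percentile and a step of 1 is a doubling. Levels of different probes depend on the probe and are not set against each other. Differences are RB1035 minus WTN2 on this log2 scale. The share of probes well above background was 68.1% to 73.1%, and precision is limited by having only 3 arrays for each strain. WTN2 1 and RB1035 1 shared slide 1, and the other 4 arrays shared slide 2. Repeated spots of the same probe had median coefficients of variation of 22.1% on RB1035 2 and 20.9% on RB1035 3, against 7.91% to 10.4% on the other 4 arrays. Each of these medians rests on only 14 to 17 bright probes printed in copies, and the part of this noise in the differences below was not tested.

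All 12 probes were well above background on all 6 arrays, none was saturated, and all 9 genes entered the test. The means of 8 genes were higher in RB1035 and that of puf-8 was lower, but no difference passed the threshold. The median difference of the 9 genes was 0.48, against 0.00 over all 19820 features tested, of which 50.3% were higher in RB1035. By limma, 0 of 9 genes changed at an adjusted p of 0.05, where the share over all features was 0.101% (0.0202% higher and 0.0807% lower in RB1035). At an unadjusted p under 0.05 there were 0 of 9 genes as well, against 7.24% of all features. The arrays of the 2 strains overlapped for each of the 9 genes, while they did not overlap for 12% of all features (5.22% higher and 6.74% lower in RB1035). Since these are whole animals, a different number of cells of a type and a different amount of transcript in each such cell cannot be told apart.

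**Figure D1:**
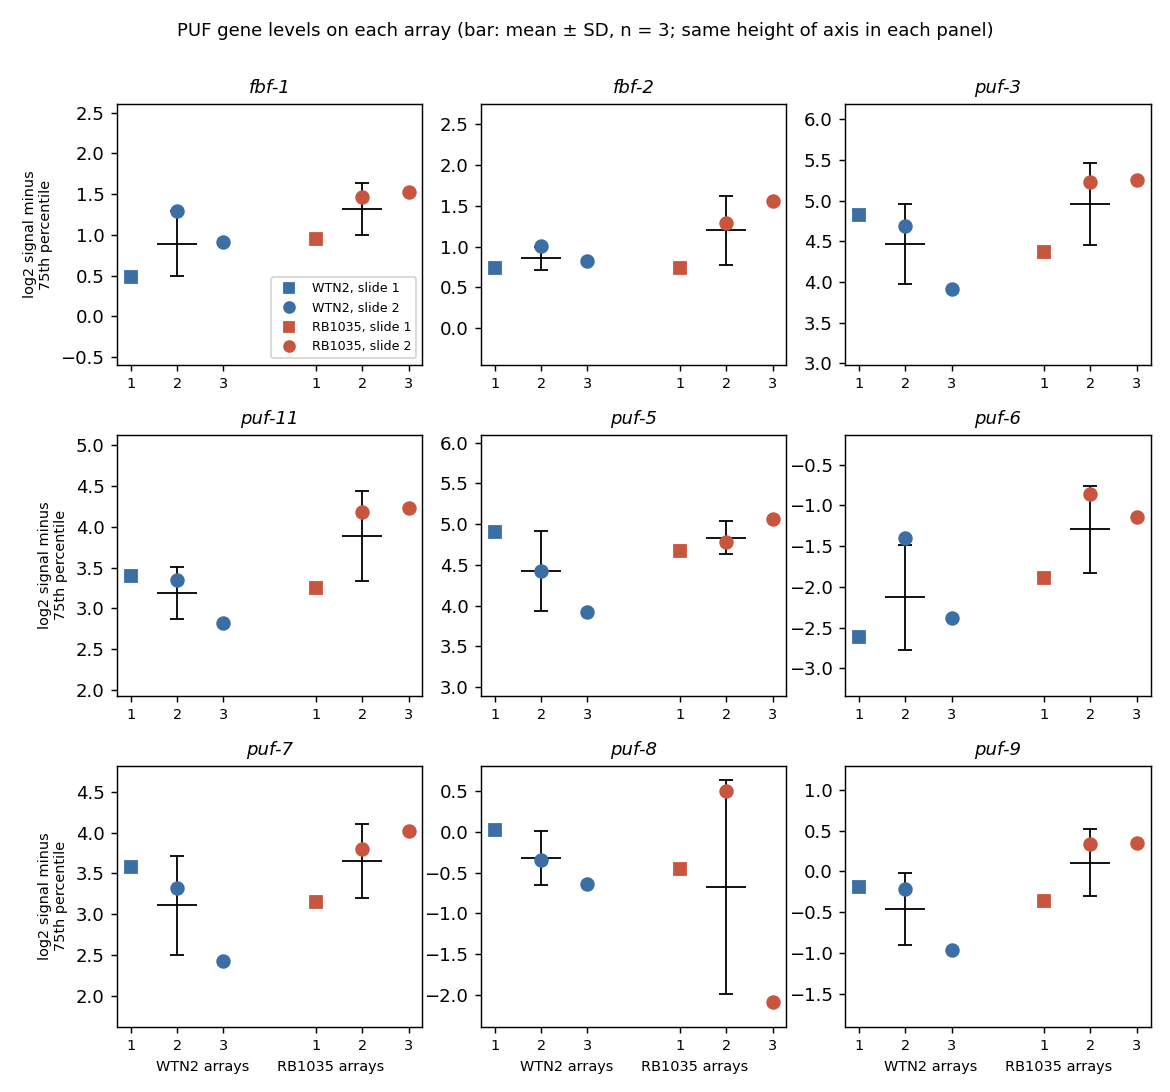
Level of each of the 9 PUF genes (log2 signal minus the array's 75th percentile) on the 3 WTN2 arrays (blue) and the 3 RB1035 arrays (red), with squares for slide 1 and circles for slide 2. The bars give mean ± SD of 3 arrays. In every panel the strains overlap, and 5 genes have their lowest value on WTN2 3 and 7 their highest on RB1035 3.

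The paralogues fbf-1 and fbf-2, whose products maintain the stem cells, were each measured by 1 probe. The level of fbf-1 was 0.48, 1.29 and 0.91 on WTN2 1, 2 and 3, and 0.95, 1.47 and 1.52 on RB1035 1, 2 and 3. Both RB1035 arrays of slide 2 lay above all WTN2 arrays, and RB1035 1 lay among them. The difference of fbf-1 was 0.42 ± 0.32 (SE), with a 95% interval from -0.31 to 1.15 (limma adjusted p = 0.679). The level of fbf-2 was 0.73, 1.01 and 0.83 in WTN2 and 0.74, 1.29 and 1.56 in RB1035. Its WTN2 arrays lay close together (SD of 0.14, n = 3), and RB1035 1 fell next to the lowest of them. The difference of fbf-2 was 0.34 ± 0.30 (SE), with a 95% interval from -0.35 to 1.03 (limma adjusted p = 0.704). Within slide 1 fbf-1 differed by 0.46 and fbf-2 by 0.01, and within slide 2 they differed by 0.40 and 0.51. The difference of fbf-1 was 0.22 without WTN2 1, and that of fbf-2 was 0.16 without RB1035 3 and 0.57 without RB1035 1. The fbf-2 value also moved with the signal scale. The scanner software divides signals by a fitted surface that evens out brightness across the array, and on RB1035 3 this multiplied the fbf-2 spot by 1.42. Without that surface fbf-2 differed by 0.18, and with normexp background correction or in the authors' deposited series table by 0.16. The median of all features with normexp was 0.18, and relative to it fbf-2 was at -0.03.

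The late oogenesis paralogues puf-3 and puf-11 have 2 probes each on the array. By its brighter probe the level of puf-3 was 4.82, 4.68 and 3.91 on WTN2 1, 2 and 3, and 4.37, 5.23 and 5.26 on RB1035 1, 2 and 3. WTN2 3 was lowest and both RB1035 arrays of slide 2 were highest, but on slide 1 the order was turned. The difference of puf-3 was 0.48 ± 0.37 (SE), with a 95% interval from -0.36 to 1.33 (limma adjusted p = 0.68). The second puf-3 probe gave 0.52, and the 2 probes moved together over the 6 arrays (Pearson's r of 0.981). On RB1035 3 the surface multiplied the brighter probe by 1.23 and the second by 1.32. Without the surface puf-3 differed by 0.36 by its brighter probe, and with normexp by 0.33. Relative to the median of all features with normexp (0.18), puf-3 differed by 0.15.

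The level of puf-11 was 3.39, 3.34 and 2.82 in WTN2 and 3.25, 4.18 and 4.23 in RB1035. RB1035 2 and 3 stood above all WTN2 arrays, and RB1035 1 lay between WTN2 3 and WTN2 2. The difference of puf-11 was 0.70 ± 0.35 (SE), with a 95% interval from -0.11 to 1.51 (limma adjusted p = 0.65). Its second probe was left out because it had an outlier flag on RB1035 2. It differed by 0.04 with that array and by 0.26 without it, against 0.55 for the first probe without that array, and the 2 puf-11 probes moved together less closely than those of puf-3 (r of 0.381).

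The size for puf-11 moved with the surface as well. On RB1035 3 the division by it multiplied the spot of the puf-11 probe used here by 1.98, from 17816 to 35224 intensity units, the largest factor among the 12 PUF probes on any array. RB1035 2 had no such surface, and on the other arrays the factor for that puf-11 spot was 0.96 to 1.10. Without the surface puf-11 differed by 0.39, with normexp background correction by 0.36, and in the authors' deposited series table by 0.41. The median of all features with normexp was 0.18, and relative to it puf-11 differed by 0.18. The order of arrays changed too: without the surface only RB1035 2 (4.18) lay above all WTN2 arrays. RB1035 3 then stood at 3.32, below WTN2 1 at 3.37.

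Within slide 1 the puf-3 difference was -0.45 and the puf-11 difference -0.15, and within slide 2 they were 0.95 and 1.13. Without WTN2 3 the difference of puf-3 was 0.20, and without RB1035 1 it was 0.77.

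Among the genes of growing oocytes, puf-5 was measured by 1 probe. Its level was 4.91, 4.43 and 3.93 on WTN2 1, 2 and 3, and 4.66, 4.78 and 5.06 on RB1035 1, 2 and 3. The WTN2 arrays enclosed 2 of the 3 RB1035 arrays. The difference of puf-5 was 0.41 ± 0.32 (SE), with a 95% interval from -0.33 to 1.15 (limma adjusted p = 0.682). It was -0.24 within slide 1 and 0.74 within slide 2, 0.17 without WTN2 3 and 0.66 without WTN2 1.

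The 2 other genes of this group, puf-6 and puf-7, also had 1 probe each. The level of puf-6 was -2.61, -1.40 and -2.38 in WTN2 and -1.89, -0.86 and -1.14 in RB1035. WTN2 1 and 3 were lowest, and WTN2 2 lay above RB1035 1. The difference of puf-6 was the largest of the 9, at 0.83 ± 0.41 (SE), a 1.78-fold higher mean, with a 95% interval from -0.11 to 1.78 (limma adjusted p = 0.65). Unlike most of the family, puf-6 was higher in RB1035 on both slides, by 0.72 on slide 1 and 0.89 on slide 2. Across the alternatives that changed the signal scale (no surface, normexp, quantile, the deposited table) its difference was 0.80 to 0.88. Normexp also raised the median of all features to 0.18, and relative to that median puf-6 differed by 0.62. The puf-6 difference also moved with the arrays used. On the main scale it was 0.59 without WTN2 1 and 1.20 without WTN2 2.

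The level of puf-7 was 3.58, 3.33 and 2.42 in WTN2 and 3.15, 3.80 and 4.01 in RB1035. Here WTN2 3 stood lowest, and WTN2 1 and WTN2 2 lay above RB1035 1. The difference of puf-7 was 0.54 ± 0.39 (SE), with a 95% interval from -0.34 to 1.43 (limma adjusted p = 0.673). It was -0.43 within slide 1 and 1.03 within slide 2, 0.20 without WTN2 3 and 0.80 without RB1035 1.

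For puf-8, the distal germline gene, the arrays of RB1035 lay further apart than those of any other member. Its level was 0.03, -0.35 and -0.64 on WTN2 1, 2 and 3, and -0.46, 0.51 and -2.09 on RB1035 1, 2 and 3. RB1035 2 was the highest of the 6 arrays and RB1035 3 the lowest. The difference of puf-8 was -0.36 ± 0.59 (SE), with a 95% interval from -1.72 to 1.00 (limma adjusted p = 0.832). Its direction rested on 1 array: it was 0.35 without RB1035 3 and -0.95 without RB1035 2. The only puf-8 probe sits in column 85, the last of the array, where the surface multiplied its signal by 1.36 to 1.88 on the 5 arrays that had one and RB1035 2 had none. Without the surface RB1035 3 was still the lowest array for puf-8, at -2.71, and the difference was -0.20 (-0.14 with normexp and -0.16 in the deposited table). Relative to the median of all features with normexp (0.18), puf-8 was at -0.32.

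The somatic gene puf-9 had 2 probes. By the brighter one its level was -0.19, -0.22 and -0.97 on WTN2 1, 2 and 3, and -0.36, 0.34 and 0.35 on RB1035 1, 2 and 3. As for puf-3 and puf-7, WTN2 3 was lowest, RB1035 2 and 3 highest, and the slide 1 arrays in reverse order. The difference of puf-9 was 0.57 ± 0.34 (SE), with a 95% interval from -0.21 to 1.35 (limma adjusted p = 0.653). The second probe differed by 0.41, and the 2 puf-9 probes had r of 0.880 over the arrays. Within slides puf-9 differed by -0.17 and 0.94, and it was 0.31 without WTN2 3.

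**Figure D2:**
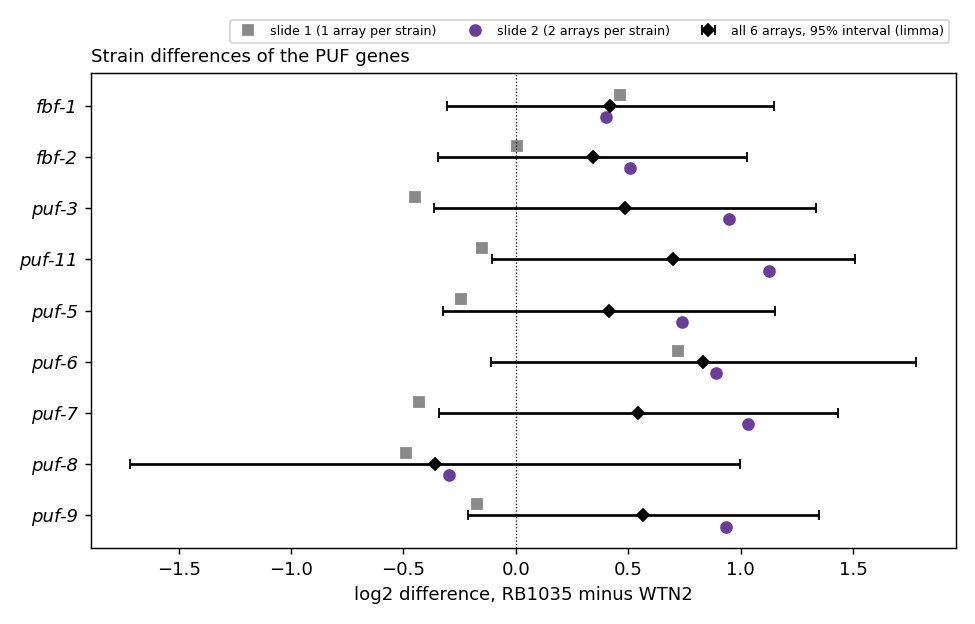
Log2 difference (RB1035 minus WTN2) of each PUF gene over all 6 arrays with its 95% interval by limma (black), on slide 1 with 1 array per strain (grey squares) and on slide 2 with 2 arrays per strain (purple circles). Every interval holds 0. On slide 2, 8 genes lie above 0, and on slide 1, 6 lie below it.

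The slides therefore gave different pictures of the family. On slide 2, 8 of 9 genes were higher in RB1035, with a median of 0.89, while 49.7% of all features were higher and their median was 0.00. On slide 1, 3 of 9 were higher (fbf-1, fbf-2 and puf-6) and 6 lower, with a median of -0.17, while 52.1% of all features were lower and their median was -0.03. The strain difference was not tested between slides, since slide 1 holds 1 array of each strain.

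Close paralogues were compared through the log2 ratio of their signals on each array, which tests whether the members of a pair differ in their strain difference. For fbf-1 over fbf-2 the ratio was -0.25, 0.27 and 0.08 on WTN2 1, 2 and 3, and 0.20, 0.18 and -0.04 on RB1035 1, 2 and 3. The strains overlapped, and the ratio differed by 0.08 (exact permutation p = 0.7, two-sided; 0.8 after Benjamini-Hochberg adjustment over 3 pairs). For puf-3 over puf-11 the ratio was 1.43, 1.34 and 1.09 in WTN2 and 1.13, 1.05 and 1.02 in RB1035. WTN2 3 fell inside the RB1035 range, and the ratio differed by -0.22 (exact permutation p = 0.2, adjusted 0.6). Without the surface that difference was -0.03.

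For puf-6 over puf-7 the ratio was -6.19, -4.72 and -4.80 in WTN2 and -5.04, -4.66 and -5.15 in RB1035. WTN2 1 stood apart, because puf-6 was at its lowest there and puf-7 was not. The ratio differed by 0.29 (exact permutation p = 0.8, adjusted 0.8). Without WTN2 1 it differed by -0.19. With 3 arrays against 3 the smallest two-sided p is 0.1, so no pair could pass 0.05.

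**Figure D3:**
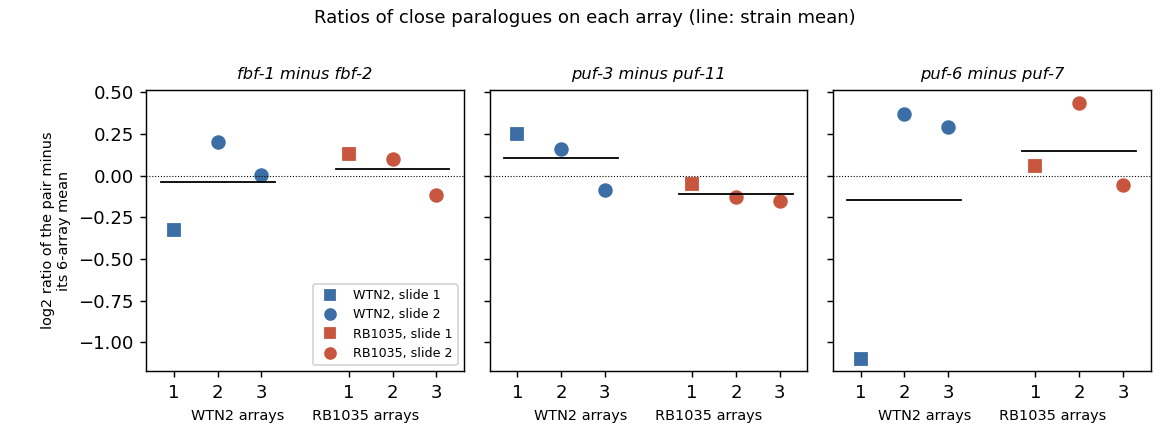
Log2 ratio of the signals of 3 pairs of PUF paralogues on each array, minus the pair's mean over the 6 arrays. Blue marks WTN2, red RB1035, squares slide 1 and circles slide 2, and lines give strain means. The puf-6 over puf-7 ratio on WTN2 1 lies -1.10 from the mean, and the other ratios stay between -0.32 and 0.44.

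How alike the members were from array to array is a description of 6 arrays that share their scaling and hold both strains. The levels of puf-3 and puf-9 had Pearson's r of 0.986, those of puf-3 and puf-7 0.982, and those of puf-3 and puf-11 0.955. For fbf-1 and fbf-2 r was 0.875, and for puf-6 and puf-7 only 0.612, while puf-6 followed fbf-1 more closely (0.955). With puf-8 all other members had r below 0, from -0.49 to -0.08. Such likeness was common on these arrays: among 19819 other features ordered by r with puf-3 its paralogue puf-11 held rank 327, and among those ordered by r with fbf-1 its paralogue fbf-2 held rank 999. The probe sequences are not in the sources used here, so hybridisation of a probe with a paralogue's transcript was not tested.

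Among 10203 other genes that were well above background on all arrays and varied by an SD of at least 0.3, those most like fbf-1 over the 6 arrays were catp-6, exp-1, Y73B6BL.23, ints-8 and T28F4.1 (r of 0.996 to 0.992). Those most like puf-5 were lin-31, W04A8.1, fbxb-59, M162.5 and lit-1 (0.988 to 0.979). Those most like puf-9 were T11G6.5, ent-5, zfp-3, lido-10 and kin-4 (0.999 to 0.996). The numbers of these genes with r above 0.9 were 436 for fbf-1, 235 for puf-5 and 808 for puf-9.

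Proteins that work with PUF proteins were read from a list of 21 genes, of which 20 were on the array and tested, lst-1 being the one without a probe. By limma 0 of 20 changed, against 0.101% of all features (0 at an unadjusted p under 0.05, against 7.24%). Of these partner genes 17 were higher in RB1035 and 3 lower, where 50.3% of all features were higher. Their median difference was 0.37, with -0.35 on slide 1, 0.68 on slide 2 and 0.15 without WTN2 3. The 3 with the smallest p were gld-3, ccf-1 and nos-1. For gld-3, a Bicaudal-C relative that binds FBF and the poly(A) polymerase GLD-2, the difference was 0.55 ± 0.32 (SE; limma adjusted p = 0.65). The gld-3 difference was -0.15 on slide 1, 0.90 on slide 2 and 0.37 without RB1035 2. The deadenylase subunit gene ccf-1 differed by 0.59 and the Nanos gene nos-1 by 0.51, and both were higher in RB1035 on each slide. Without RB1035 2, ccf-1 differed by 0.36 and nos-1 by 0.33. The other Nanos gene named here, nos-3, differed by 0.41 (0.21 without RB1035 2), sygl-1, a Notch target whose product works with FBF, by 0.40, and gld-2 by 0.11. On slide 1, gld-2 differed by -1.12 and sygl-1 by -0.77. Without WTN2 3, gld-2 differed by -0.21 and sygl-1 by 0.04.

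Messenger RNAs reported as PUF targets made a list of 21 genes, all tested, which shares gld-1 and fog-1 with the partner list. None changed by limma, against 0.101% of all features. An unadjusted p under 0.05 was found for 1 of 21, against 7.24% of all features. Of the 21, 12 were higher in RB1035 and 9 lower, where 50.3% of all features were higher. The median difference was 0.12, with -0.19 on slide 1 and 0.28 on slide 2. That median was -0.09 without WTN2 2 and 0.005 without RB1035 3, so its sign rested on 1 array. The target with the smallest p was fog-3, a Tob-family gene that directs germ cells to become sperm. Its level was -2.71, -2.32 and -1.44 on WTN2 1, 2 and 3, and -2.90, -3.06 and -3.05 on RB1035 1, 2 and 3. All RB1035 arrays lay below all WTN2 arrays, which 6.74% of all features did. The difference of fog-3 was -0.85 ± 0.36 (SE), with a 95% interval from -1.67 to -0.03 (limma adjusted p = 0.65), -0.19 on slide 1 and -1.18 on slide 2. It was -0.49 without WTN2 3 and -0.50 with normexp, where the median of all features was 0.18.

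The other named targets did not pass the test either. The sperm-promoting FBF target fem-3 differed by 0.14 (-0.09 without WTN2 2). With normexp fem-3 differed by -0.05, where the median of all features was 0.18. For fog-1 the difference was 0.33, with -0.25 on slide 1, 0.61 on slide 2, 0.20 without WTN2 2 and 0.50 without WTN2 1. The meiosis regulator gld-1, an FBF target and also a partner, differed by 0.40, with -0.98 on slide 1, 1.09 on slide 2 and -0.03 without WTN2 3. The Notch receptor gene glp-1, a target of the oocyte PUF proteins, differed by 0.45 and was higher on both slides, but by 0.03 without RB1035 2. For hbl-1, the hunchback relative that PUF-9 represses, the difference was 0.68, with -0.19 on slide 1, 1.11 on slide 2 and 0.30 without WTN2 3. The kinase gene egl-4 differed by 0.58 and was higher on each slide, by 0.62 and 0.57.

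The gene table holds 3 more PUF genes. The more distant relative puf-12 differed by -0.33 ± 0.28 (SE; limma adjusted p = 0.699), and by -0.14 without WTN2 3. The table lists puf-10 as a pseudogene, and its 1 probe was well above background on all 6 arrays, with a difference of 0.32 ± 0.38 (SE; limma adjusted p = 0.769), or 0.005 without WTN2 3 and 0.72 with normexp. The median of all features with normexp was 0.18. For puf-4, also listed as a pseudogene, no probe was found.

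Markers of the cell types in a whole adult were read beside the family. The median deviation of the 9 PUF genes from their own 6-array means was -0.70 on WTN2 3, 0.51 on RB1035 2 and 0.54 on RB1035 3, and between -0.19 and -0.02 on the other 3 arrays. On WTN2 3, RB1035 2 and RB1035 3 the median deviation of 22 oocyte genes was -0.71, 0.41 and 0.38, and that of 10 body wall muscle genes -1.06, 1.00 and 0.73. For 17 general germline genes it was -0.37, 0.03 and 0.23, for 10 intestine genes -0.20, 0.16 and 0.15, and for the PUF partners -0.54, 0.44 and 0.32. Other lists ran otherwise on these 3 arrays, with 0.16, -0.14 and -0.24 for sperm genes, 0.06, 0.38 and 0.03 for neuronal genes, and 0.20, 0.06 and 0.16 for PUF targets. The part of any cell type in the PUF values was not tested.

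Of the oocyte genes 20 of 22 were higher in RB1035, where 50.3% of all features were higher. Their median difference was 0.49, with -0.27 on slide 1, 0.85 on slide 2 and 0.18 without WTN2 3. Their summed signal, as multiples of the 75th percentile, was 213 to 433 in WTN2 and 325 to 443 in RB1035. Of 17 germline genes 11 were higher, with a median of 0.14 that was -0.09 on slide 1, 0.24 on slide 2, -0.03 without WTN2 3 and 0.27 without WTN2 2, and with sums of 112 to 129.6 in WTN2 and 109 to 144 in RB1035. Of 27 tested sperm genes 23 were lower, with a median of -0.49 that was -0.32 on slide 1, -0.58 on slide 2 and -0.29 without RB1035 2, and with sums of 276 to 434 in WTN2 and 274 to 287 in RB1035. Of 10 muscle genes 9 were higher, with a median of 0.90 that was 0.03 on slide 1 (5 of 10 higher), 1.34 on slide 2 and 0.57 without WTN2 3, and with sums of 124 to 193 in WTN2 and 160.3 to 241 in RB1035.

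Intestine genes had a median of 0.07 (7 of 10 higher), which was -0.21 on slide 1, 0.15 on slide 2, 0.03 without RB1035 3 and 0.20 without RB1035 1. Neuronal genes had a median of 0.30 (9 of 10 higher), which was 0.16 on slide 1, 0.30 on slide 2 and 0.09 without RB1035 2. No marker of these lists changed by limma, against 0.101% of all features. At an unadjusted p under 0.05 there were 4 of 27 sperm, 2 of 10 muscle and 1 of 22 oocyte genes, against 7.24% of all features. The members with the smallest p were oma-1 (0.86), egg-2 (0.70) and pie-1 (0.88) for oocytes, spe-27 (-1.23), spe-38 (-0.996) and spe-10 (-1.66) for sperm, and unc-22 (1.84), unc-89 (1.63) and unc-54 (1.75) for muscle. For the germ line they were mes-4 (0.49), him-8 (-0.49) and glh-2 (0.38), for the intestine cpr-1 (0.66), pept-1 (0.30) and mtl-2 (0.35), and for neurons egl-3 (0.74), egl-21 (0.61) and unc-119 (0.40). All 3 intestine genes were lower in RB1035 on slide 1, with differences of -0.40 for cpr-1, -0.14 for pept-1 and -0.26 for mtl-2. With 1 array left out, mtl-2 differed by 0.002 (without WTN2 2), pept-1 by 0.13 (without RB1035 3), cpr-1 by 0.43 (without RB1035 2), egl-3 by 0.37 (without WTN2 3), egl-21 by 0.37 and unc-119 by 0.25 (both without RB1035 2). Likewise spe-10 differed by -0.90 and him-8 by -0.18 (both without RB1035 2), and pie-1 by 0.53 and mes-4 by 0.22 (both without WTN2 3). On slide 1 unc-22, unc-89 and unc-54 differed by 0.17, 0.27 and 0.56, and on slide 2 by 2.67, 2.32 and 2.34. For oma-1 the slides gave 0.31 and 1.14, and for egg-2 -0.18 and 1.14. With normexp spe-38 differed by -0.49, where the median of all features was 0.18. All markers of the oocyte, germline, muscle, intestine and neuron lists were well above background on at least 1 array. Of 12 genes first transcribed in the early embryo, 5 were well above background on no array and 4 were tested, of which 2 were higher and 2 lower. The embryo genes with the smallest p were end-3 (-0.50), end-1 (0.57, but -0.13 without RB1035 1) and elt-7 (0.22). With normexp end-3 differed by 0.10, which lay below the median of all features with normexp (0.18). The end-1 probe was well above background on 1 WTN2 and 2 RB1035 arrays, and differed by 1.82 on slide 1 and -0.06 on slide 2.

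**Figure D4:**
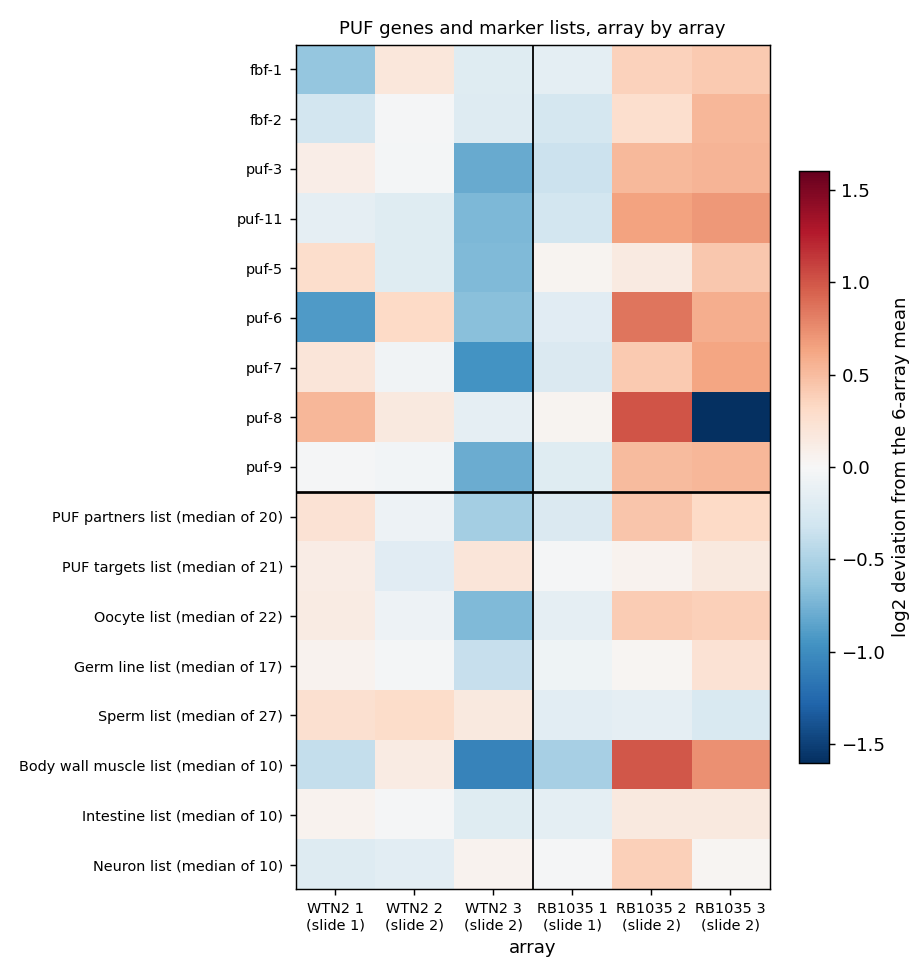
Colour gives the log2 deviation from the 6-array mean on each array, for the 9 PUF genes (above the line) and for the median gene of each list (below it), with WTN2 arrays on the left and RB1035 arrays on the right. WTN2 3 is below the mean for all 9 PUF genes and RB1035 2 above it for all 9, and the partner, oocyte, germline, muscle and intestine lists have the same signs on these 2 arrays, while the target, sperm and neuron lists are above the mean on WTN2 3.

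The order of arrays was the clearest common feature of the family, but it was not particular to it. The medians of the partner, oocyte, germline, muscle and intestine lists also lay below the mean on WTN2 3 and above it on RB1035 2 and 3. WTN2 3 was the lowest array for 5 of the 9 PUF genes (puf-3, puf-5, puf-7, puf-9 and puf-11), against 22.2% of all features. RB1035 3 was the highest for 7 of them, all except puf-6 and puf-8, against 17.9% of all features. This count moved with the surface. Without it RB1035 2 was the highest for fbf-2, puf-3, puf-9 and puf-11, with 4.18 against 3.32 on RB1035 3 for puf-11. For puf-6 RB1035 3 became the highest (-0.65 against -0.86 on RB1035 2). All 9 were above their own mean on RB1035 2 and none was on WTN2 3. The median deviation over all features was 0.01 on RB1035 2 and 0.03 on WTN2 3. Without the surface fbf-2 on WTN2 3 (0.98) was no longer below its own mean.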

How the data were processed

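Transcript levels were measured in 3 WTN2 and 3 RB1035 samples of whole young adult worms, grouped by the strain in their titles. Agilent Feature Extraction 10.7.3.1 gave the deposited intensity of each spot, per the file headers, on arrays annotated on build ce4, with background subtracted and, except on RB1035 2, a multiplicative surface divided out. The deposited series table holds log2 values with medians of 7.61 or 7.62, whose centring and processing the labels used here do not describe.

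Of 45220 spots per array 1417 controls were left out, copies of a probe were averaged, and the 75th percentile was subtracted from log2 signals. Left out were 149 probes flagged as outliers on at least 1 array and those well above background on fewer than 3 arrays. Probes were named through a gene table of assembly WBcel235 (30975 by sequence name, 3342 by accession, and 1072 that kept the file's sequence name), which was used for names and chromosomes only, since the builds differ. Of several probes for a gene, the brightest stood for it.

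Strain differences came from lmFit and eBayes of limma 3.58.1 under R 4.3.3 (two-sided, Benjamini-Hochberg adjustment over 19820 features, threshold 0.05), without replicate numbers. The procedure was also run on simulated data with independent noise, equal on all arrays, and no slide effect. Those settings differ from the arrays used here, so no conclusion is drawn from that run. Paralogue ratios were tested by exact permutation in scipy 1.17.1. Normexp used median spot signals, because mean signals are not in the files.

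The members and gene lists were chosen with earlier results of these data known. The genes named were all 9 members, the 3 with the smallest p in each list, 10 partners and targets, and the 5 most like fbf-1, puf-5 and puf-9.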

Additional observations from a re-analysis of the deposited data

How the results depend on the processing

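Under 17 alternatives no PUF gene changed by limma, and 8 genes kept their direction throughout. At an unadjusted p under 0.05 stood puf-3, puf-7, puf-9 and puf-11 on slide 2 alone (15.1% of all features), puf-6 and puf-11 without RB1035 1 (15.4%), and puf-6 with slide as a block (9.49%), with the replicate block (9.14%) and without WTN2 2 (7.81%). The direction of puf-8 turned without RB1035 3 (0.35), in a range of -0.95 to 0.35 over arrays left out. The features that changed numbered 20 of 19820, 11 with normexp, 1 with the stricter background filter of 6 of 6 arrays (17419 features tested) and 17 to 20 when 1 array was left out. The median PUF difference was 0.89 on slide 2 alone and 0.31 to 0.77 when 1 array was left out. Normexp raised the median of all features to 0.18; relative to it the PUF median was 0.18, 7 of 9 genes were higher, and fbf-2 was at -0.03. Paralogue ratios turned sign on slide 2 alone (fbf-1 over fbf-2 -0.11, puf-6 over puf-7 -0.14). With 1 array left out, fbf-1 over fbf-2 was -0.064 (without WTN2 1) to 0.20, puf-6 over puf-7 was -0.19 (without WTN2 1) to 0.55, and puf-3 over puf-11 was -0.32 to -0.15. The cause was not tested. With the replicate block, 30 features and 0 PUF genes changed, and the smallest PUF adjusted p was 0.517 (puf-6); with slide as a block these were 18, 0 and 0.522. Deviations of same-numbered arrays from their strain means had correlations of 0.12, 0.12 and 0.02, and 2 of 6 arrays correlated best with their own number, so the numbers were not taken as pairs. Leaving out the surface was chosen after the data were seen. With 3 arrays per strain the PUF intervals reach 1.00 to 1.78 upwards and -0.11 (puf-11) to -1.72 (puf-8) downwards. Differences of those sizes, in either direction, are not excluded.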
